A study of Mus musculus with 12 samples.

Results

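Nuclear receptors were described as a family of 38 named genes in the liver of mice given a virus carrying human apolipoprotein F. The members were named as a gene family, by a rule that uses no measured value, although earlier results of these data were known when the family was picked. Each gene was represented by the probe set with the highest mean over the 12 arrays among those annotated to that gene alone. Of the 38 genes, 37 had such a probe set, out of 22180 genes measured in this way. The exception was Nr1h2 (LXR beta), which is not analysed here. Each value is the deposited log2 signal of a probe set, and a difference of 1 on this scale is a doubling.

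The hApoF group (arrays 7 to 12) received an Ad5 adenovirus encoding human ApoF, a secreted protein carried on lipoproteins and also known as lipid transfer inhibitor protein. The GFP group (arrays 1 to 6) received an Ad5 adenovirus encoding green fluorescent protein. All livers came from male C57BL6/J mice aged 8 to 10 weeks, housed at 22 °C with 12 h of light and 12 h of dark, injected in the tail vein, and killed on day 4 after injection at 3 pm following a fast of 6 h. Both groups therefore carried a virus and had fasted, uninjected livers are not analysed here, and the labels give no viral dose. Whether each array stands for a separate mouse is not stated in the labels, so a p-value here reflects only the spread among these arrays, which may be technical.

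Nuclear receptors are transcription factors, most of which carry a pocket for a small lipophilic ligand. In the liver, many bind DNA as partners of a retinoid X receptor and read out the state of metabolism: CAR (Nr1i3) and PXR (Nr1i2) respond to drugs and bile acids, FXR (Nr1h4) to bile acids, the liver X receptors to oxysterols and the PPARs to fatty acids. Others, such as SHP (Nr0b2) and the REV-ERBs (Nr1d1 and Nr1d2), act as repressors, and the Nr4a receptors are immediate-early genes whose transcripts appear soon after a stimulus.

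The 12 arrays had medians between 4.93 and 5.03 on the log2 scale, and correlations between arrays across probe sets lay between 0.982 and 0.993. The lower quartile was 3.74 to 3.8 in hApoF arrays and 3.66 to 3.72 in GFP arrays other than GFP 4, which stood at 3.8 and so lay with the hApoF arrays. The upper quartile was 6.668 to 6.726 in hApoF arrays, 6.673 in GFP 4 and 6.734 to 6.814 in the other GFP arrays. The quartiles thus lay closer together in hApoF arrays and GFP 4. A further quantile normalization, which evens out the quartiles, was among the alternatives, and its effects on calls and signs are given below. Beyond that, the part of this in small differences was not tested. The 7 hepatocyte markers measured had mean levels of 12.89 to 12.98 in hApoF arrays and 12.83 to 12.87 in GFP arrays, and none of the 7 passed limma's test (unadjusted p under 0.05 for 2). For 2 of the 7 every hApoF array was above every GFP array, against 1.49% of all genes. Fgb, a fibrinogen chain gene (0.19, limma adjusted p = 0.080), passed with brighter genes only (0.0261) and with a trended, robust prior (0.0120). Apoa1 differed by 0.17 (adjusted p = 0.18). The defining transcripts of the labelled tissue were thus present on every array.

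Among the receptors, CAR rose and thyroid hormone receptor alpha (Thra) fell in hApoF livers, and no other member passed the test. These 2 calls make 5.41% of the 37 members, against 6.91% of all genes by limma with Benjamini-Hochberg adjustment over all genes at a threshold of 0.05. In each direction 1 of 37 members passed, against 2.11% of all genes higher (469 of 22180) and 4.8% lower (1064). The share of members called was near that background. At an unadjusted p under 0.05, limma called 8 members (4 higher and 4 lower), which is 21.6%, against 21.3% of all genes (10.1% higher and 11.1% lower). An exact permutation test over the assignments of arrays to groups gave an unadjusted p under 0.05 for 10 of the 37. Its share over all genes was not computed. For receptors not called, its p is given below mostly where it was under 0.05. The median log2 difference, hApoF minus GFP, was 0.03 over the members and 0.03 over all genes. Of the 37 differences, 18 lay within 0.1 of 0 and the 95% intervals of 34 lay within a 1.5-fold change in either direction; the wider or shifted intervals were those of Nr1i3, Pparg and Nr4a1. The hApoF and GFP arrays did not overlap for 2 members, Nr1i3 and Thra, while 4.98% of all genes showed no overlap (1.49% higher and 3.49% lower).

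**Figure D1:**
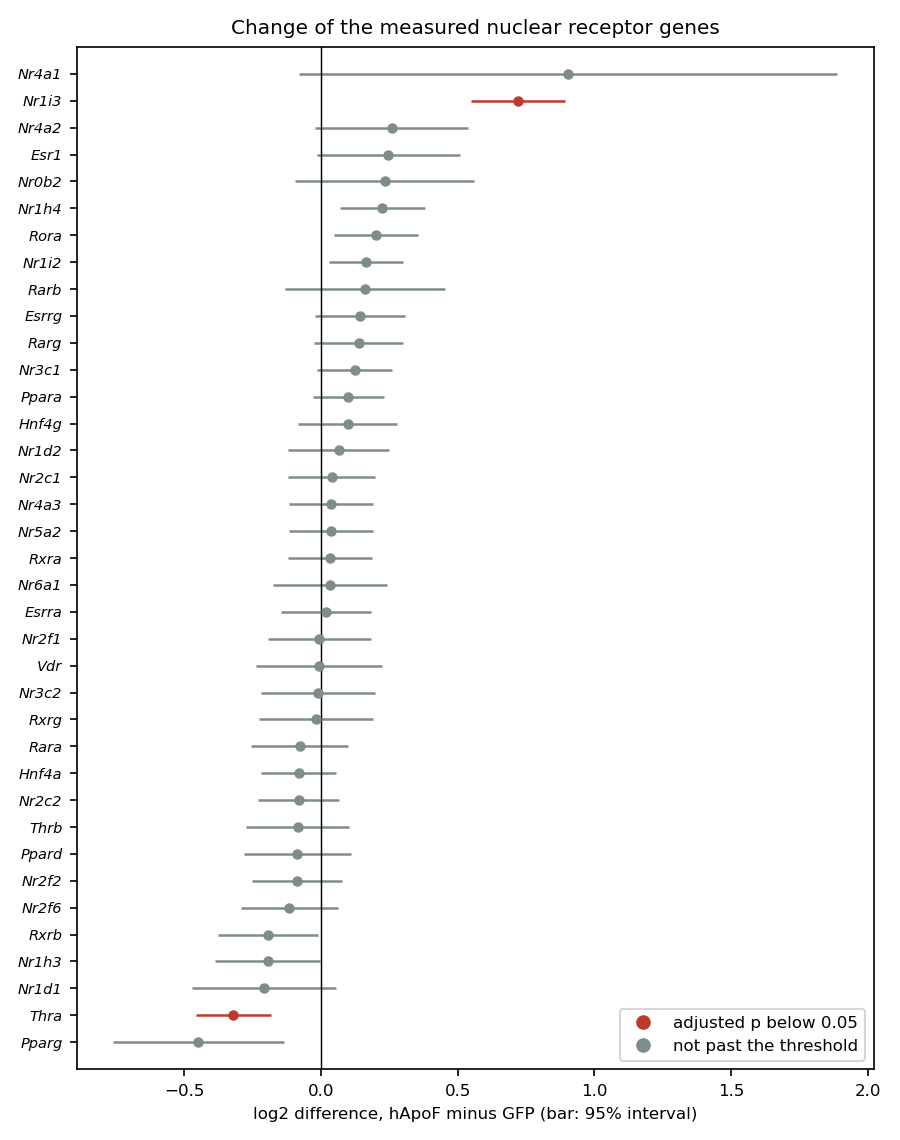
Difference between hApoF and GFP livers for each of the 37 receptors, on the horizontal axis as log2 units (hApoF minus GFP), with points for the limma estimate and bars for its 95% interval; red marks an adjusted p below 0.05. Nr1i3 at 0.72 and Thra at -0.32 are the called members, and Nr4a1 has the widest bar.

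Nr1i3, the constitutive androstane receptor that drives drug-metabolising genes, had log2 signals of 9.50 at the lowest, 9.74 at the median and 9.82 at the highest in hApoF livers, against 8.76, 9.0 and 9.13 in GFP livers. Every hApoF array lay above every GFP array. The mean was 9.70 ± 0.13 in hApoF livers and 8.98 ± 0.12 in GFP livers (SD, n = 6 each), a rise of 0.72 (SE 0.08, 95% interval 0.55 to 0.89) or 1.65-fold (limma adjusted p = 5.3e-05). The exact permutation test over the 924 assignments of the arrays gave p = 0.0022, the smallest it can give. Nr1i3 was called in all 19 other settings tried. In these bulk samples a change in the cells of a type and a change in RNA per cell cannot be told apart. The same holds for every receptor below.

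Nr1i2, the pregnane X receptor and the closest relative of Nr1i3 in this set, had signals of 8.95, 9.04 and 9.09 (lowest, median, highest) in hApoF livers, against 8.71, 8.86 and 8.96 in GFP livers. The groups overlapped only at the edge, with the lowest hApoF array just under the highest GFP array. The difference was 0.16 (SE 0.06, 95% interval 0.03 to 0.30) and did not pass (limma adjusted p = 0.15, and 0.057 to 0.28 over all settings). The unadjusted exact permutation p was 0.0043. Vdr, the vitamin D receptor of the same subfamily, had 4.76, 5.10 and 5.26 in hApoF livers and 4.85, 5.03 and 5.5 in GFP livers, and its groups lay over each other (difference -0.01, adjusted p = 0.98).

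The changes of related receptors were compared within arrays, for 25 pairs chosen after their values were seen. The change of Nr1i3 exceeded that of Nr1i2 by 0.55 (SE 0.08) and that of Vdr by 0.73 (SE 0.12), each with an exact permutation p of 0.0022 and p = 0.0271 after adjustment over the 25 pairs. Since the pairs were taken with Nr1i3 already the called riser, these values describe the arrays and add no independent support. The Vdr signal was near the array medians, so its gap from Nr1i3 is that of a dim probe set.

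Upstream sequence of Nr1i3 is shown because it is the receptor that rose, and that of Nr1i2 because it is the closest relative, which did not pass. The RefSeq promoter table (GRCm38.p6) gives 1 transcript start for each of the pair, which lies 36 bases inside the outermost annotated end of Nr1i3 and 25 bases inside that of Nr1i2. Motifs were searched in the 250 bases before the table's start, and the bases printed, 214 for Nr1i3 and 225 for Nr1i2, are those of the window that lie outside the annotated gene. Capitals mark the E-box CACGTG, which was searched on both strands, as were the receptor half-site AGGTCA and the letters TGACG of the cyclic AMP response element; no matches overlapped.
Nr1i3, chr1:171213720-171213933, plus strand: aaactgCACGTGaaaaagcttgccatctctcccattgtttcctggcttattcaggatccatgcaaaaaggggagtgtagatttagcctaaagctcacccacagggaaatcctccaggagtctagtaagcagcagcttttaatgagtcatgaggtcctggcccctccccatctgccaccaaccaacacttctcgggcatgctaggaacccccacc
Nr1i2, chr16:38294850-38295074, minus strand: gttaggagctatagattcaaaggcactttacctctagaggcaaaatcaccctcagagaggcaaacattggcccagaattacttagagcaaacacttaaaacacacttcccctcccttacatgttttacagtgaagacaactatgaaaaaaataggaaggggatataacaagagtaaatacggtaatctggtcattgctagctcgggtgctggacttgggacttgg
The Nr1i3 window holds 1 E-box, whose first base lies at -244 from that start and would be counted otherwise from another, and neither window holds AGGTCA or TGACG. The E-box was in 7.41% of the 54 member windows (of 35 genes) and in 6.02% of the 32851 windows of all genes, and the half-site AGGTCA in 18.5% of member windows and 14% of all windows. A match describes letters only, not binding.

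**Figure D2:**
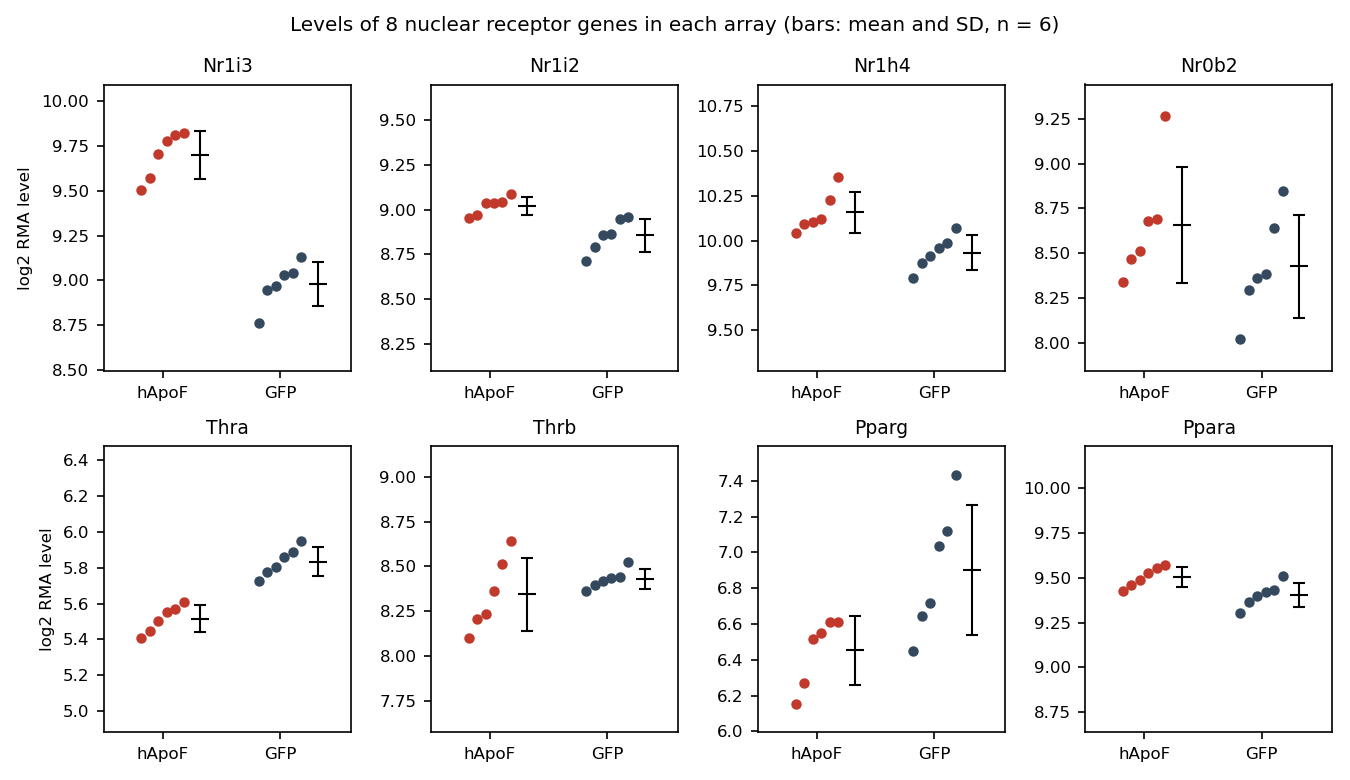
Log2 signal per array for 8 receptors, hApoF livers on the left and GFP livers on the right of each panel, with 6 points per group and bars for the mean ± SD. The groups are separate for Nr1i3 and Thra and overlap in the other 6 panels.

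Genes that CAR and PXR are known to induce moved in both directions. Of 25 measured of the 29 listed, 5 rose, 4 fell and 16 did not pass, with a median difference of 0.05. Over all genes 2.11% were called higher and 4.8% lower, shares that stand beside this count and every list count below. The falls included Gstm3 (-1.25, SE 0.18, limma adjusted p = 4.4e-04) and Gstm1 (-0.66, SE 0.10, adjusted p = 4.7e-04), which encode glutathione transferases. The epoxide hydrolase gene Ephx1 fell by 0.70 (adjusted p = 0.0022) and the cytochrome P450 gene Cyp2c55 fell by 1.08 (adjusted p = 0.0024). Those 4 kept their calls in each of the 12 omissions of 1 array. With the mean of the gene's probe sets in place of the brightest, the difference of Cyp2c55 was -0.43 (adjusted p = 0.0034). The rises, named after their values were seen, were Alas1 (0.48, adjusted p = 0.0029), the rate-limiting enzyme of haem synthesis, Cyp2c50 (0.78, adjusted p = 0.0043), Cyp2c54 (0.80, adjusted p = 0.0063), Cyp3a13 (0.45, adjusted p = 0.018) and the anion transporter gene Slco1a4 (0.64, adjusted p = 0.025). Slco1a4 lost its call without GFP 2 or 6 or hApoF 9, 10 or 12 (adjusted p up to 0.059). The Cyp2c and Gstm genes belong to families of close copies, whose signals the probe sets may share.

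The best-known CAR target, Cyp2b10, and the PXR target Cyp3a11 were also looked at after their values were seen. Cyp2b10 had 4.27, 5.31 and 6.92 in hApoF livers, against 5.99, 6.56 and 7.14 in GFP livers. Most hApoF arrays lay under the GFP arrays, but hApoF 9, at 6.92, and hApoF 10, at 6.06, lay among them. The difference of -1.13 (SE 0.35) was opposite in sign to that of Nr1i3 and did not pass (limma adjusted p = 0.062). It passed without hApoF 9 (adjusted p = 0.0056), without GFP 4 (0.0469) and with brighter genes only (0.0346). Cyp3a11 differed by -0.11 (adjusted p = 0.42).

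Thra, a receptor for thyroid hormone, had signals of 5.41, 5.53 and 5.61 in hApoF livers, against 5.73, 5.83 and 5.95 in GFP livers. The hApoF arrays all lay below the GFP arrays. The mean was 5.52 ± 0.08 in hApoF livers and 5.84 ± 0.08 in GFP livers (SD, n = 6 each), a fall of 0.32 on the log2 scale (SE 0.06, 95% interval of the difference -0.46 to -0.18), with a limma adjusted p of 0.0070 and an exact permutation p of 0.0022. Thra was called in all 19 other settings, with adjusted p-values of 0.0017 to 0.022 in the limma fits. Its signal was rather dim, not far above the array medians of 4.93 to 5.03, at the percentile 56.4 of all genes by level.

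Thrb, which encodes the thyroid hormone receptor known as the main form in hepatocytes, had 8.10, 8.30 and 8.64 in hApoF livers and 8.36, 8.43 and 8.52 in GFP livers. The hApoF arrays spread on both sides of the GFP arrays, and the difference was -0.08 (95% interval -0.27 to 0.10, adjusted p = 0.63). The change of Thra was below that of Thrb by 0.23 (difference of the changes -0.23, SE 0.11), which did not pass after adjustment over the 25 pairs (exact permutation p = 0.0498, adjusted p = 0.156). Thra and Nr1d1 overlap each other on chromosome 11 in the RefSeq annotation, and the strand that each probe set reads was not checked here. Nr1d1 itself had 7.67, 8.30 and 8.49 in hApoF livers and 8.24, 8.38 and 8.56 in GFP livers, and its difference was -0.21 (SE 0.12, adjusted p = 0.36), or -0.11 without hApoF 10.

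Of 7 measured thyroid hormone receptor targets, 1 fell, none rose and 6 did not pass, with a median of -0.13. The gene that fell was Gpd2 (-0.40, limma adjusted p = 0.041), the mitochondrial glycerol-3-phosphate dehydrogenase. Its call was lost in 9 omissions of 1 array (GFP 1, 2, 3, 4, 5, 6 and hApoF 7, 10, 11; adjusted p up to 0.095), and the count was then 0.

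Of the bile acid receptors, Nr1h4 (FXR) lay near the threshold. It had 10.04, 10.11 and 10.36 in hApoF livers, against 9.79, 9.94 and 10.07 in GFP livers. Only the top of the GFP range reached into the hApoF range. The difference was 0.23 (SE 0.07, 95% interval 0.07 to 0.38), with a limma adjusted p of 0.077 and an unadjusted exact permutation p of 0.0043. It passed when only brighter genes were fitted (adjusted p = 0.030) and with a trended, robust prior (0.0317).

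Nr0b2 (SHP), an FXR-induced repressor without a DNA-binding domain, had 8.34, 8.60 and 9.26 in hApoF livers, against 8.02, 8.37 and 8.84 in GFP livers. The groups overlapped over most of their range, the highest value being that of hApoF 11, and the difference of 0.23 (SE 0.15, 95% interval -0.09 to 0.56) did not pass (adjusted p = 0.41). Without hApoF 11 the difference was 0.11, and without GFP 2 it was 0.15. Nr5a2 (LRH-1), an activator of bile acid synthesis genes that SHP opposes, had 9.26, 9.42 and 9.58 in hApoF livers and 9.29, 9.40 and 9.53 in GFP livers. Its groups lay over each other (difference 0.04, adjusted p = 0.81).

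Of 13 measured targets of FXR and SHP, 3 rose, none fell and 10 did not pass, with a median of 0.21. The list mixes induced genes with repressed ones such as Cyp7a1, so its count and median do not measure the output of FXR. Slc27a5, the enzyme that activates bile acids for conjugation, had 10.33, 10.75 and 10.82 in hApoF livers and 9.84, 10.01 and 10.33 in GFP livers. The rise was 0.64 (SE 0.10, limma adjusted p = 0.0013), with the groups touching only at one edge. Kng1, kininogen, rose by 0.36 (SE 0.08, adjusted p = 0.013), with no overlap between the groups. The third gene, the phospholipid transfer protein gene Pltp, rose by 0.48 (SE 0.13, adjusted p = 0.033), is listed for the liver X receptors as well, and lost its call in 7 omissions of 1 array (GFP 3, 5, 6 and hApoF 7, 9, 10, 12; adjusted p up to 0.080).

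Cyp7a1, the rate-limiting enzyme of bile acid synthesis and a gene repressed through FXR and SHP, was looked at after its values were seen. It had 10.31, 10.74 and 11.59 in hApoF livers and 9.90, 10.07 and 10.77 in GFP livers. The groups overlapped, and the difference of 0.62 (SE 0.20) did not pass (limma adjusted p = 0.080). It passed without GFP 2 (adjusted p = 0.0472), without hApoF 7 (0.050) and with brighter genes only (0.0441).

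Nr1h3 (LXR alpha), an oxysterol receptor, had 7.22, 7.65 and 7.72 in hApoF livers, against 7.6, 7.75 and 7.89 in GFP livers. The lower part of the GFP range overlapped the hApoF arrays, and the difference was -0.19 (SE 0.09, limma adjusted p = 0.23, unadjusted exact permutation p = 0.0368), or -0.12 without hApoF 12. It differed in sign from that of Nr1h4, and the gap between the changes, Nr1h3 minus Nr1h4, was -0.42 (SE 0.14, exact permutation p = 0.00866, adjusted over the pairs 0.0649). Of 16 measured LXR targets, 2 rose, none fell and 14 did not pass, with a median of 0.06. Mylip, a ubiquitin ligase that degrades the LDL receptor, had 7.20, 7.34 and 7.65 in hApoF livers and 6.75, 6.89 and 6.96 in GFP livers. Its groups were separate, and it rose by 0.50 (SE 0.08, adjusted p = 8.7e-04). Pltp was the other; without GFP 3, 5 or 6 or hApoF 9, 10 or 12 the count was 1.

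Of the fatty acid receptors, Pparg had the largest difference. PPAR gamma, best known as the regulator of fat cell formation and of lipid storage, had 6.15, 6.53 and 6.61 in hApoF livers, against 6.45, 6.88 and 7.43 in GFP livers. The GFP arrays spread more widely than the hApoF arrays and lay mostly above them. The mean was 6.45 ± 0.19 in hApoF livers and 6.90 ± 0.36 in GFP livers (SD, n = 6 each), a difference of -0.45 (SE 0.15, 95% interval -0.76 to -0.14) that did not pass (limma adjusted p = 0.081, unadjusted exact permutation p = 0.0238). It passed without GFP 4 (adjusted p = 0.026), and also with array weights (0.0348) and with brighter genes only (0.0432).

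Ppara, the receptor that raises fatty acid oxidation in fasting, had 9.43, 9.51 and 9.57 in hApoF livers and 9.30, 9.41 and 9.51 in GFP livers. The ranges overlapped in part, and the difference was 0.10 (SE 0.06, 95% interval -0.03 to 0.23, limma adjusted p = 0.37, unadjusted exact permutation p = 0.0216). Ppard had 6.63, 6.73 and 6.84 in hApoF livers and 6.46, 6.85 and 7.02 in GFP livers, a difference of -0.09 (adjusted p = 0.64) with the hApoF arrays inside the GFP range. The change of Ppara minus that of Pparg was 0.55 (SE 0.18, exact permutation p = 0.0108, adjusted over the pairs 0.0649).

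Transcripts of PPAR alpha target genes fell where they changed, although that of Ppara itself did not pass. Of 28 measured of the 33 listed, 6 fell, none rose and 22 did not pass; the median was -0.27, and 3 of 28 differences were positive, against 57.7% of all genes. The mean level of the list was 8.58 to 9.12 in hApoF arrays and 9.01 to 9.43 in GFP arrays. Acot2, a mitochondrial acyl-CoA thioesterase, had 7.51, 8.07 and 9.0 in hApoF livers, against 9.39, 10.01 and 10.82 in GFP livers. Its groups were separate, and it fell by 1.88 on the log2 scale (SE 0.27, limma adjusted p = 4.1e-04). Angptl4, an inhibitor of lipoprotein lipase, fell by 0.34 (adjusted p = 0.0084) and the lipid droplet gene Cidec fell by 0.68 (adjusted p = 0.0086). Pex11a, a peroxisome proliferation gene, fell by 0.37 (adjusted p = 0.026) and lost its call without GFP 2, 3 or 6 or hApoF 7 or 9 (adjusted p up to 0.066). The other 2, named after their values were seen, were the carnitine carrier gene Slc25a20 (-0.32, adjusted p = 0.028) and Hadhb (-0.41, adjusted p = 0.042), a subunit of the mitochondrial trifunctional protein. Slc25a20 lost its call without GFP 2, 3 or 6 or hApoF 7 or 9 (adjusted p up to 0.071), and Hadhb without GFP 1, 2, 3, 5 or 6 or hApoF 7, 10, 11 or 12 (up to 0.099). The count was 3 without GFP 2, 3 or 6 or hApoF 7, 11 with brighter genes only and 10 with GFP 4 and hApoF 12 both left out.

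The retinoid X receptors, partners of most of the receptors above, did not pass. Rxra had 9.53, 9.76 and 9.84 in hApoF livers and 9.57, 9.73 and 9.81 in GFP livers (difference 0.03, adjusted p = 0.83), so that its groups lay over each other. Rxrb had 6.19, 6.25 and 6.61 in hApoF livers, against 6.37, 6.51 and 6.68 in GFP livers (difference -0.19, SE 0.09, limma adjusted p = 0.21), with 1 or more hApoF arrays inside the GFP range. After a further quantile normalization the difference of Rxrb was -0.11 (limma adjusted p = 0.49). As deposited, the change of Rxra minus that of Rxrb was 0.23 (SE 0.07, exact permutation p = 0.013, adjusted over the pairs 0.0649). This gap was not computed after that normalization. Rxrg had 4.80, 4.98 and 5.22 in hApoF livers and 4.75, 4.99 and 5.29 in GFP livers (difference -0.02, adjusted p = 0.95), again with overlapping groups.

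The retinoic acid receptors lay between -0.08 and 0.16. Rara had 6.86, 6.96 and 7.08 in hApoF livers and 6.68, 7.10 and 7.13 in GFP livers (difference -0.08, limma adjusted p = 0.64). Rarb had 5.01, 5.32 and 5.72 in hApoF livers and 4.78, 5.15 and 5.62 in GFP livers (difference 0.16, adjusted p = 0.54; 0.08 without hApoF 12, 0.09 without GFP 5 and 0.25 without GFP 2). Rarg had 5.71, 5.90 and 5.96 in hApoF livers and 5.57, 5.72 and 5.86 in GFP livers (difference 0.14, adjusted p = 0.32). The groups overlapped for all 3 genes.

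Of 16 measured genes of retinoid handling and retinoic acid response, 2 rose, none fell and 14 did not pass, with a median of 0.08. Rdh16, a retinol and steroid dehydrogenase, had 8.36, 8.80 and 8.97 in hApoF livers and 7.38, 7.81 and 8.11 in GFP livers. Every hApoF array was above every GFP array, and the gene rose by 0.98 (SE 0.13, limma adjusted p = 3.0e-04). Cyp26a1, which breaks down retinoic acid and is itself induced by it, rose by 0.52 (SE 0.13, adjusted p = 0.024), a call lost without GFP 1 or without GFP 3 (adjusted p up to 0.058), which left 1 rise. The count of rises was 4 without GFP 4 and 4 without hApoF 11, and 1 gene fell without hApoF 7.

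Of the receptors tied to the clock, none passed. Rora, an activator of clock and lipid genes, had 7.47, 7.56 and 7.71 in hApoF livers, against 7.16, 7.39 and 7.54 in GFP livers. The GFP arrays reached only into the lower part of the hApoF range. The difference was 0.20 (SE 0.07, 95% interval 0.05 to 0.36, limma adjusted p = 0.11, unadjusted exact permutation p = 0.0065). It passed after a further quantile normalization (limma adjusted p = 0.0303) and with brighter genes only (0.0473). Nr1d2 (REV-ERB beta) had 8.81, 8.92 and 9.17 in hApoF livers and 8.63, 8.87 and 9.11 in GFP livers (difference 0.07, adjusted p = 0.72), with its groups interleaved. For Nr1d1 (REV-ERB alpha), given with Thra above, the change minus that of Nr1d2 was -0.27 (exact permutation p = 0.169, adjusted over the pairs 0.264).

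Of 8 measured REV-ERB and ROR targets, 1 fell, none rose and 7 did not pass, with a median of 0.02. The REV-ERBs repress and Rora activates, so this count and median do not measure the output of either. Clock, a core activator of the circadian loop, fell by 0.39 (SE 0.10, limma adjusted p = 0.027). Its groups were only just apart, with hApoF 8 at 9.823 and GFP 4 at 9.825. Clock lost its call without GFP 2, 3 or 6 or hApoF 7, 9 or 10 (adjusted p up to 0.069), when the count was 0. Its partner Arntl, looked at after its value was seen, differed by -0.13 (adjusted p = 0.73). All livers were taken at one hour of the day, so these values are 1 point of the daily cycle.

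The HNF4 receptors did not pass. Hnf4a, a central regulator of liver genes, had 10.61, 10.77 and 10.83 in hApoF livers and 10.73, 10.82 and 10.88 in GFP livers. The ranges overlapped, and the difference was -0.08 (95% interval -0.22 to 0.06, limma adjusted p = 0.51). Hnf4g, its paralog, had 4.16, 4.31 and 4.46 in hApoF livers and 4.02, 4.19 and 4.51 in GFP livers (difference 0.10, adjusted p = 0.55). Its probe set lay below the median of every array, where signal over background limits what a difference means. Of 15 measured HNF4A targets, 1 rose, none fell and 14 did not pass, with a median of 0.05. The gene that rose was F7, coagulation factor VII (0.28, SE 0.07, adjusted p = 0.026), with no overlap between the groups. Its call was lost without GFP 2, 3 or 6 or hApoF 7, 9 or 10 (adjusted p up to 0.066), the count of rises was 3 without GFP 4 and 2 without GFP 5 or hApoF 12, and 1 gene fell without hApoF 9.

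The orphan receptors with Nr2c, Nr2f and Nr6 gene symbols, several of which repress by competing for receptor sites, gave differences from -0.11 to 0.04, and none passed. Nr2f6 had 6.69, 7.0 and 7.17 in hApoF livers and 6.97, 7.10 and 7.21 in GFP livers (difference -0.11, limma adjusted p = 0.47). Nr2f2 (COUP-TFII) had 5.97, 6.02 and 6.10 in hApoF livers and 5.89, 6.16 and 6.31 in GFP livers (difference -0.09, adjusted p = 0.56), the hApoF arrays all lying within the GFP range. For Nr2f1 (COUP-TFI), which was below the median of every array, the difference was -0.01 (adjusted p = 0.98). Nr2f1 spanned 4.27 to 4.75 in hApoF livers and 4.43 to 4.72 in GFP livers. The testicular receptor genes overlapped as well, Nr2c1 spanning 7.98 to 8.30 in hApoF livers and 7.98 to 8.20 in GFP livers (difference 0.04, adjusted p = 0.81). Nr2c2 spanned 7.65 to 7.81 in hApoF livers and 7.61 to 7.97 in GFP livers (difference -0.08, adjusted p = 0.54). Nr6a1 (GCNF) spanned 5.21 to 5.67 in hApoF livers and 4.98 to 5.48 in GFP livers (difference 0.03, adjusted p = 0.88), with its lowest GFP value in GFP 4.

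The steroid hormone receptors did not pass either. Nr3c1, the glucocorticoid receptor, had 8.91, 9.0 and 9.12 in hApoF livers, against 8.76, 8.91 and 8.96 in GFP livers. The groups overlapped at the edges, and the difference was 0.12 (SE 0.06, limma adjusted p = 0.29, unadjusted exact permutation p = 0.0173). Nr3c2, the mineralocorticoid receptor, had 6.15, 6.43 and 6.64 in hApoF livers and 6.24, 6.41 and 6.63 in GFP livers (difference -0.01, adjusted p = 0.96). A second probe set of Nr3c2 had means of 3.09 in hApoF livers and 2.98 in GFP livers, a difference of 0.10 with an exact permutation p of 0.260. Esr1, oestrogen receptor alpha, had 7.18, 7.38 and 7.93 in hApoF livers and 7.04, 7.23 and 7.40 in GFP livers, with overlapping groups (difference 0.25, SE 0.12, 95% interval -0.01 to 0.51, adjusted p = 0.26). It was 0.15 without hApoF 7.

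The oestrogen-related receptors, which act on genes of oxidative metabolism, did not pass. Esrrg had 5.30, 5.37 and 5.47 in hApoF livers and 4.95, 5.30 and 5.36 in GFP livers (difference 0.14, limma adjusted p = 0.31, unadjusted exact permutation p = 0.0346). Esrra had 6.66, 6.89 and 7.07 in hApoF livers and 6.67, 6.90 and 6.93 in GFP livers (difference 0.02, adjusted p = 0.91). The groups overlapped for both.

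Of 16 measured glucocorticoid receptor targets, 3 rose, none fell and 13 did not pass, with a median of 0.10. Pck1, the gluconeogenic enzyme PEPCK, had 12.42, 12.50 and 12.57 in hApoF livers and 11.91, 11.97 and 12.26 in GFP livers. Its groups were separate, and it rose by 0.44 (SE 0.08, limma adjusted p = 0.0020). Igfbp1, an insulin-repressed binding protein, rose by 1.19 (SE 0.29, adjusted p = 0.023) and lost its call without GFP 1, 2 or 6 or hApoF 9 or 12 (adjusted p up to 0.057), when the count was 1. The metallothionein gene Mt1 rose by 0.50 (SE 0.13, adjusted p = 0.035), a call held only without GFP 5 and without hApoF 8 among the 12 omissions (adjusted p up to 0.078 in the other 10). The count was 5 without GFP 5.

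Nr4a1 (Nur77), an immediate-early receptor, had the largest difference of the family and the largest spread. Its log2 signals were 5.83, 7.61 and 8.36 (lowest, median, highest) in hApoF livers, against 5.43, 6.14 and 7.98 in GFP livers. Both groups spanned more than 2 log2 units and overlapped over most of that range. The mean was 7.35 ± 0.88 in hApoF livers and 6.44 ± 1.07 in GFP livers (SD, n = 6 each), a difference of 0.90 (SE 0.46, 95% interval -0.08 to 1.89) that did not pass (limma adjusted p = 0.28, 0.092 to 0.46 over all settings; exact permutation p = 0.139). Its SD within groups was 0.977, against a median of 0.138 over the members and 0.167 over all genes.

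Nr4a2 (Nurr1) had 4.89, 5.15 and 5.51 in hApoF livers and 4.58, 4.79 and 5.38 in GFP livers (difference 0.26, SE 0.13, limma adjusted p = 0.28). Nr4a3 (NOR1), below the median of every array, had 4.71, 4.85 and 4.95 in hApoF livers and 4.67, 4.79 and 4.97 in GFP livers (difference 0.04, adjusted p = 0.81). Both pairs of groups overlapped. The changes of Nr4a1 and Nr4a2 differed by 0.64 (exact permutation p = 0.245, adjusted over the pairs 0.322).

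The 250 bases before the 1 start that the RefSeq promoter table (GRCm38.p6) gives for Nr4a1 are shown because all 3 Nr4a genes had a TGACG match in such a window. That start lies 12944 bases downstream of the outermost annotated start of Nr4a1, so the window is inside the annotated gene, before one of its transcripts. Capitals mark TGACG or its reverse complement CGTCA, the core letters of sites that cyclic AMP responsive factors bind.
Nr4a1, chr15:101266596-101266845, plus strand: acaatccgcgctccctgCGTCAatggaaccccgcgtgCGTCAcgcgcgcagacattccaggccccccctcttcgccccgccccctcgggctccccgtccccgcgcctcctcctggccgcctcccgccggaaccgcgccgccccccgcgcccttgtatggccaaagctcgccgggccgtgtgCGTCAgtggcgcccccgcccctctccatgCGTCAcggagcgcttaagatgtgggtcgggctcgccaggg
The window holds 4 matches, with first bases at -233, -213, -69 and -40 from that start. TGACG was in 18.5% of member windows and in 17.8% of all windows, and 74.4% of the bases in the Nr4a1 window are G or C.

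Among 14 other immediate-early genes, Fos and Egr1, picked with their values in view, showed the same arrays high and low as Nr4a1. In hApoF livers, Nr4a1 was 6.89, 7.66, 8.36, 5.83, 7.77 and 7.56 in arrays 7 to 12, and in GFP livers 5.43, 5.86, 6.42, 7.98, 7.47 and 5.5 in arrays 1 to 6. Fos was 7.39, 8.16, 8.48, 6.25, 8.27 and 7.63 in hApoF livers and 4.80, 5.63, 6.56, 7.15, 7.24 and 5.11 in GFP livers. Egr1 was 7.87, 8.59, 9.14, 7.26, 8.05 and 8.63 in hApoF livers and 6.27, 6.99, 7.02, 8.10, 8.16 and 6.11 in GFP livers. In all 3 genes hApoF 9 was the highest and hApoF 10 the lowest of the hApoF arrays, GFP 4 and 5 were the highest GFP arrays, and GFP 1 and 6 the lowest. Over the 14 genes of the list, hApoF 9 was the highest hApoF array in 11 and hApoF 10 the lowest in 9, GFP 4 and 5 were the highest GFP arrays in 9, and GFP 1 and 6 the lowest in 7. The order was not shared by, for example, Klf4 or Ier3, and Ier2 and Junb were lowest in GFP 1 and 2.

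**Figure D3:**
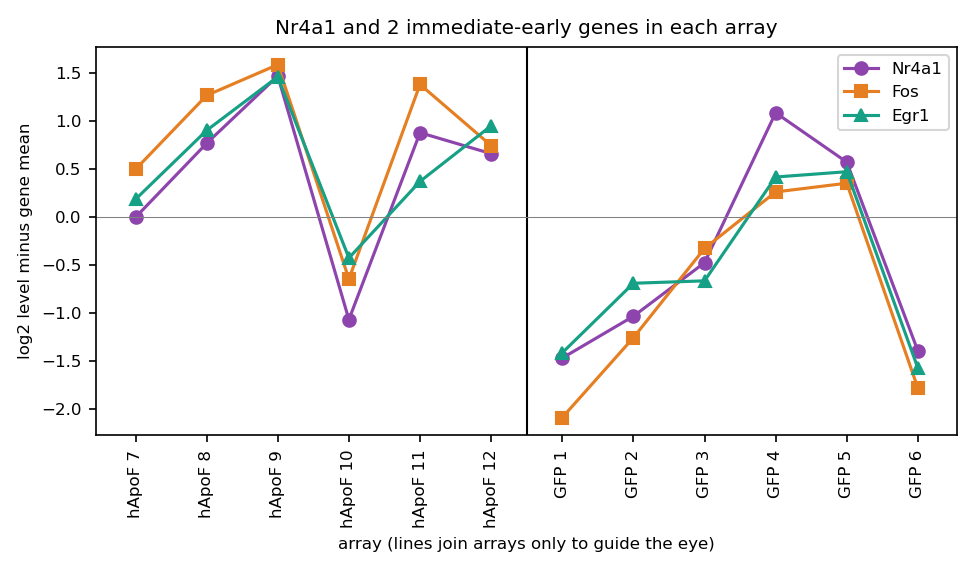
Log2 signal minus the gene's mean over the 12 arrays for Nr4a1, Fos and Egr1, with 1 position per array on the horizontal axis, hApoF arrays left of GFP arrays. hApoF 10 is the lowest hApoF array, and GFP 4 and 5 are the highest GFP arrays, for all 3 genes.

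Of 14 immediate-early genes measured, 5 rose, none fell and 9 did not pass, against 2.11% of all genes called higher. Differences were positive for 11, against 57.7% of all genes, and the median was 0.70. Btg2, an antiproliferative gene, rose by 1.12 (SE 0.25, limma adjusted p = 0.014) and kept its call in all 12 omissions. Ier2 rose by 1.10 (adjusted p = 0.023), Junb by 0.72 (adjusted p = 0.036), Zfp36 by 0.85 (adjusted p = 0.038) and Fos, named after its values were seen, by 1.61 (SE 0.45, adjusted p = 0.041). Egr1, also named after its values were seen, differed by 1.15 (SE 0.37, adjusted p = 0.075). Egr1 passed without GFP 4 (adjusted p = 0.0326), GFP 5 (0.0356) or hApoF 10 (0.0423), and with brighter genes only (0.0431). The count was 1 without GFP 1, 2, 3 or 6, 2 without hApoF 8, 9, 11 or 12, 3 without hApoF 7, 8 without GFP 4 and 9 without hApoF 10. It was also 1 with a trended, robust prior (adjusted p = 0.051 for Junb, 0.053 for Ier2, 0.078 for Zfp36 and 0.10 for Fos) and 8 with brighter genes only. Over the 12 omissions, adjusted p-values reached 0.057 for Ier2, 0.084 for Junb, 0.090 for Zfp36 and 0.095 for Fos.

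Among the coregulators that receptors recruit, 3 of 21 measured fell, none rose and 18 did not pass, with a median of -0.09. Med1, the Mediator subunit that contacts ligand-bound receptors, had 7.98, 8.08 and 8.25 in hApoF livers and 8.28, 8.51 and 8.62 in GFP livers. It fell by 0.38 (SE 0.08, limma adjusted p = 0.0054). Hdac3, the deacetylase of the NCoR and SMRT corepressor complexes, had 8.65, 8.83 and 8.95 in hApoF livers and 9.04, 9.15 and 9.22 in GFP livers, and it fell by 0.33 (SE 0.07, adjusted p = 0.014). The groups were separate for both genes, which kept their calls in all 12 omissions. Ncoa1, the coactivator SRC-1, fell by 0.25 (adjusted p = 0.044), a call that held only without GFP 4 among the 12 omissions (adjusted p up to 0.10). Ppargc1a, which encodes the coactivator PGC-1 alpha and was named after its values were seen, differed by 0.30 (adjusted p = 0.088), and passed without hApoF 11.

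Of 7 further nuclear receptor genes measured, such as those of the other steroid and orphan receptors, none passed limma's test at an adjusted p of 0.05, and 2 had an unadjusted p under 0.05. Their median was 0.08. Rorb differed by 0.24 (adjusted p = 0.19) and passed without GFP 4, and Esr2, oestrogen receptor beta, differed by 0.18 (adjusted p = 0.20). The levels of 5 of the 7 were below the median of every array.

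**Figure D4:**
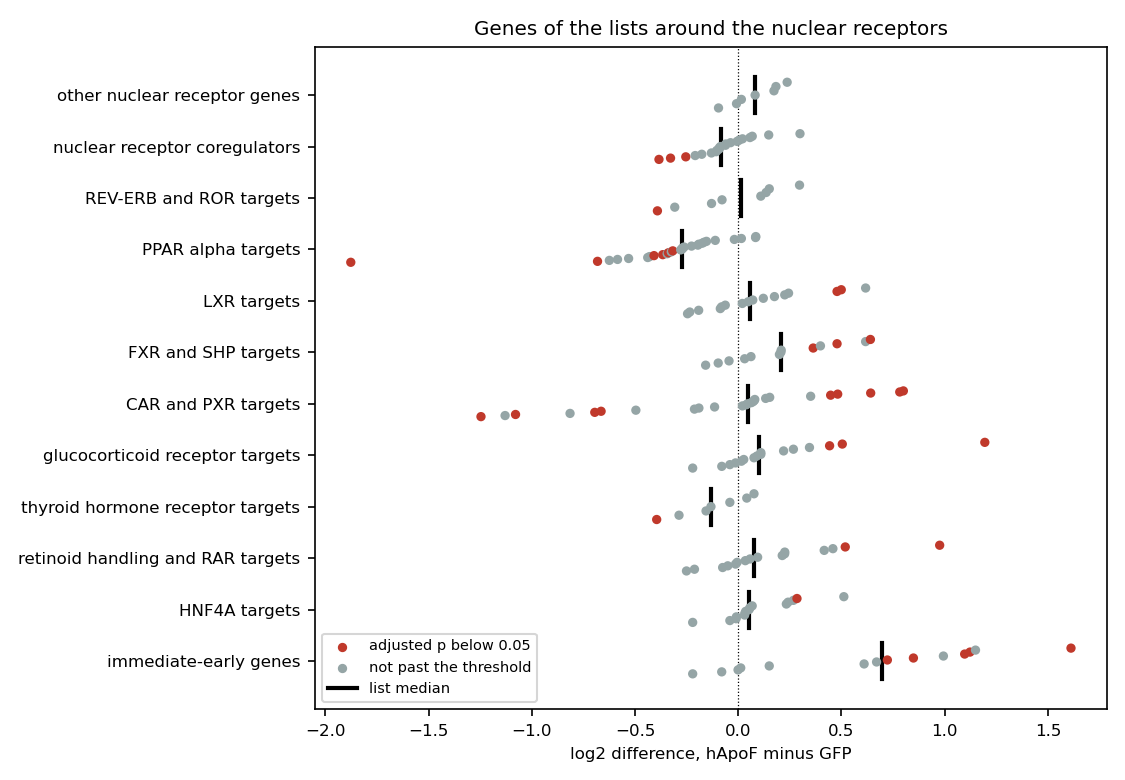
Difference between hApoF and GFP livers (log2, hApoF minus GFP) for each gene of 12 lists, with 1 dot per measured gene and a black bar at the list median. The bar lies at 0.70 for immediate-early genes and at -0.27 for PPAR alpha targets, against a median of 0.03 over all genes.

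The members also differed in how tightly the arrays of a group lay together. Besides Nr4a1, the SD within groups was high for Nr0b2, Pparg and Rarb, at the percentiles 93.1, 91.5 and 88.5 of all genes. It was low for Ppara, Nr1i2, Hnf4a, Nr3c1 and Thra, at the percentiles 1.15, 3.08, 3.64, 3.65 and 3.90. Thra, with a difference of -0.32, was called, and Pparg, with -0.45, was not.

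**Figure D5:**
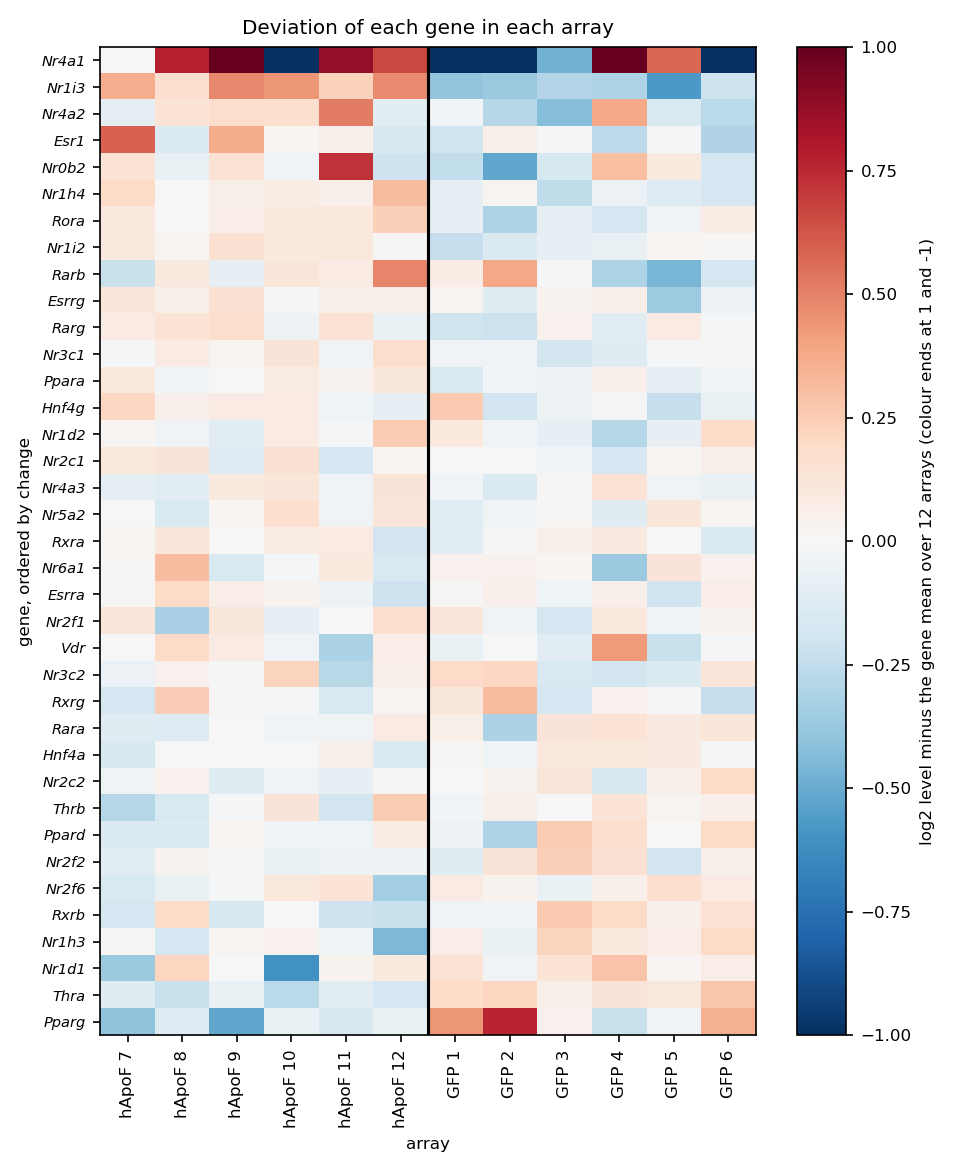
Heat map of the log2 signal minus the gene's mean over 12 arrays, with 37 receptors as rows and 12 arrays as columns, hApoF arrays left of GFP arrays; colours end at 1 and -1. Nr1i3 changes colour at the border between the groups, while Nr4a1 varies within both.

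Some markers of liver cell types other than hepatocytes differed between the groups (those of hepatocytes are given above), and their part in the receptor values was not tested. All 11 endothelial markers had positive differences, against 57.7% of all genes. Of the 11, 2 rose, against 2.11% of all genes: Kdr (0.44, limma adjusted p = 0.0089) and Tek (0.41, adjusted p = 0.014). The list's mean level was 8.19 to 8.54 in hApoF arrays and 7.90 to 8.40 in GFP arrays, and 5 rose without GFP 4. Of 10 macrophage and Kupffer markers, 3 rose: Clec4f (1.26, adjusted p = 0.010), Cd163 (0.96, adjusted p = 0.031) and Vsig4 (1.38, adjusted p = 0.038). The other 7 did not pass: Timd4 (0.81), Marco (0.26), C1qa (0.20), Cd5l (0.12), Csf1r (0.11), Cd68 (0.02) and Adgre1 (-0.13). The mean level of that list was 6.90 to 7.86 in hApoF arrays and 6.35 to 7.34 in GFP arrays, and the count was 1 without GFP 1, 2 or 3 or hApoF 7 or 11, with adjusted p-values up to 0.077 for Cd163 and 0.088 for Vsig4. Cd163 alone was also lost without GFP 4, and Vsig4 alone without hApoF 9 or 12.

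Of 10 stellate and fibroblast markers, 3 rose: Rgs5 (0.54, limma adjusted p = 0.0034), Dcn (0.26, adjusted p = 0.034) and Pdgfrb (0.28, adjusted p = 0.038). The other 7 did not pass: Lrat (0.46), Reln (0.32), Col3a1 (0.26), Col1a2 (0.12), Col1a1 (-0.004), Acta2 (-0.03) and Des (-0.09). The mean level of the list was 7.44 to 7.75 in hApoF arrays and 7.22 to 7.57 in GFP arrays. The count of rises was 1 without GFP 1, 2, 3 or 6 or hApoF 7, 8, 9 or 12. Dcn was lost without hApoF 10 and Pdgfrb without hApoF 11 as well (adjusted p up to 0.085 and 0.095). None of the 5 bile duct markers passed limma's test (unadjusted p under 0.05 for 3), with mean levels of 4.64 to 4.99 in hApoF arrays and 4.69 to 4.83 in GFP arrays; Epcam differed by 0.29 (adjusted p = 0.065) and passed without GFP 5 or hApoF 10, and Sox9 by -0.31 (adjusted p = 0.068) and passed without hApoF 7 or 11.

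None of the 5 lymphocyte markers passed limma's test (unadjusted p under 0.05 for 1), with mean levels of 4.56 to 4.87 in hApoF arrays and 4.46 to 4.76 in GFP arrays; Cd79a differed by 0.27 (adjusted p = 0.063) and passed without GFP 4, and Ms4a1 by 0.22 (adjusted p = 0.34). Of 4 neutrophil markers, S100a9 rose (0.40, adjusted p = 0.049), a call lost in 9 omissions of 1 array (GFP 1, 2, 3, 5, 6 and hApoF 7, 8, 10, 11; adjusted p up to 0.113), and the mean level was 4.18 to 4.81 in hApoF arrays and 4.08 to 4.51 in GFP arrays. No marker value was at 0 on the log2 scale. Below the median of every array were 3 of the 5 bile duct, 2 of the 5 lymphocyte and 3 of the 4 neutrophil markers, and none of the endothelial, macrophage or stellate markers.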

How the data were processed

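Liver RNA of 6 hApoF and 6 GFP samples was measured on 1 array each. The values deposited by the authors are log2 signals per probe set, made with oligo and RMA (background correction, quantile normalization and median-polish summary) per the submitters' processing notes, with versions, parameters and genome build not given in the sources used here. All 35145 probe sets were used as deposited, with no filter on dim probe sets. Platform annotation, which can be old, gave 23521 of them 1 gene symbol, 1814 several and 9810 none; of the 23521, 23328 matched a RefSeq gene table (GRCm38.p6) by gene number. Only those annotated to exactly 1 gene were kept. Of the resulting 22180 genes, 1082 had more than 1 probe set, and the one with the highest mean over the arrays was kept.

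The comparison was fitted across all genes with limma 3.58.1 in R 4.3.3 (lmFit, eBayes, no covariates), two-sided, with Benjamini-Hochberg adjustment and a threshold of 0.05. Exact two-sided permutation tests used all 924 assignments of the arrays. Tables, motif searches and plots used Python 3.11.15, pandas 2.3.3, scipy 1.17.1 and matplotlib 3.10.9. Alternatives were arrays centred on their medians, a further quantile normalization, brighter genes only, the mean of a gene's probe sets, a trended and robust prior, array weights, and omissions of arrays. In simulated data for the same 22180 genes, the fit recovered 68% of 50 genes shifted by 0.5 (log2), 96% of 50 shifted by 1 and 100% of those shifted by 1.5 or 2. The simulated noise was normal and independent between genes, without the array-wide differences of the real arrays. The smallest shift, 0.5, was larger than the difference of every member but Nr1i3 and Nr4a1, so smaller differences were not covered. The number of arrays limits the precision.

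The members were named by family, with no measured value in the rule, but this choice and those of the gene and marker lists were made with earlier results of these data known. The alternatives were applied to the lists as well. Named genes are all members and, from each list, up to 4 genes with the lowest p among those past the threshold, or 2 where none passed. Genes outside that rule were picked with their values in view.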

Additional observations from a re-analysis of the deposited data

Results flagged for a closer look

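Among the 176 groups of 6 arrays examined for 88 named genes, 9 held an array whose gap to its nearest neighbour, as a share of the group's range, was above Dixon's 95% critical value for that number; chance gives about 1 in 20. Of the 74 groups of receptors, 4 did. GFP 4 was the array that stood apart in 3 of these. It was the lowest GFP array for Nr2c1 (7.98, the next being 8.12; ratio 0.653) and for Nr6a1 (4.98, the next being 5.38; ratio 0.788), and the highest for Vdr (5.5, the next being 5.08; ratio 0.647). GFP 2 was the lowest GFP array for Rara (6.68, the next being 7.05; ratio 0.830).

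Of the other genes, the coactivator gene Ncoa1 was lowest in GFP 4 (7.99, the next being 8.26; ratio 0.738). Ms4a1, a B cell gene, was highest in hApoF 12 among the hApoF arrays (5.11, the next being 4.47; ratio 0.779), as was Mylip (7.65, the next being 7.36; ratio 0.649). Slc27a5 was lowest in hApoF 12 among them (10.33, the next being 10.66; ratio 0.678), and Pdgfrb in hApoF 10 (6.65, the next being 6.83; ratio 0.765).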

How the results depend on the processing

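Nr1i3 and Thra kept their direction and their call in all 19 other settings. With 1 call higher as deposited, 2 receptors were higher after a further quantile normalization (Rora added), 3 with brighter genes only (Nr1h4 and Rora added), 2 with a trended, robust prior (Nr1h4 added), 2 with GFP 4 and hApoF 12 both left out (Nr4a2 added), and 1 in every omission of 1 array. With 1 call lower, 2 were lower with brighter genes only, 2 with array weights and 2 with GFP 4 and hApoF 12 both left out (Pparg added each time), and 1 to 2 when 1 array was left out (2 without GFP 4). Over all genes, omissions of 1 array gave 254 to 653 higher calls, against 469 with all arrays (307 with GFP 1 left out, 254 with GFP 2, 267 with GFP 3 and 267 with GFP 6), and 748 to 1335 lower calls, against 1064. The other 7 settings gave 405 to 703 higher and 948 to 1415 lower calls.

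Counts of gene lists also moved by over 1.5 times in some settings. With brighter genes only, calls higher were 5 for LXR targets (2 as deposited), 5 for retinoid genes (2), 4 for HNF4A targets (1), 4 for endothelial (2) and 5 for stellate markers (3), and with a trended, robust prior 4 for LXR targets, 4 for retinoid genes, 4 for HNF4A targets, 4 for endothelial and 1 for macrophage markers (3). HNF4A targets had 1 call lower in these settings and after a further quantile normalization, against 0. Array weights gave 3 calls higher for HNF4A targets, 4 for endothelial and 1 for lymphocyte markers (0), and 2 lower for thyroid hormone receptor targets (1). With GFP 4 and hApoF 12 both left out, calls higher were 5 for FXR targets (3), 2 for HNF4A targets, 1 for lymphocyte markers and 1 for further receptors (0, Rorb), and 2 lower for thyroid targets. A further quantile normalization gave 0 for thyroid targets, and 0 for neutrophil markers (1), as did brighter genes only. Brighter genes only added 1 higher coregulator (Ppargc1a, 0 as deposited), and with either that or the trended prior 1 bile duct marker was lower (Sox9, 0). Some single calls were lost as well. Mt1 (limma adjusted p = 0.063) and Dcn (0.062) were lost after a further quantile normalization. With GFP 4 and hApoF 12 both left out, Mt1 (0.088) and Cyp26a1 (0.063) were lost. Igfbp1 was lost with a trended, robust prior (0.061) and Ncoa1 with arrays centred on their medians (0.060).

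The sign turned in at least 1 setting for 9 receptors that were not called, and the cause was not tested. With GFP 4 and hApoF 12 both left out, the difference was -0.030 for Nr1d2, -0.0029 for Nr5a2, -0.0049 for Nr6a1 and 0.064 for Vdr. After a further quantile normalization it was 0.065 for Nr3c2 and -0.0023 for Nr4a3, with the mean of probe sets 0.045 for Nr3c2, and with array weights 0.0080 for Vdr. Over the omissions of 1 array the difference ran from -0.039 to 0.060 for Nr2f1, -0.057 to 0.042 for Nr3c2, -0.039 to 0.067 for Nr6a1, -0.067 to 0.045 for Rxrg, -0.053 to 0.078 for Vdr and -0.019 to 0.063 for Esrra. Signals below an array's median (Nr2f1, Nr4a3 and Hnf4g) limit what a small difference can show. No paired analysis was possible because the groups share no replicate number.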
